A study of Homo sapiens with 8 samples.

Results

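The 8 genes described here, ANGPTL4, TNFSF15, ST6GAL2, GPRIN3, ESM1, IFNE, SEMA7A and S1PR5, were taken by symbol from 24598 genes measured in human skin fibroblasts. They had been picked for large changes with transforming growth factor beta 1 (TGFB1) or for reversal of those changes by celastrol, so the members were chosen by their measured differences between TGFB1, celastrol and control libraries, and those differences are given as descriptions, without a test. The choice also set ANGPTL4, which celastrol alone raised, against the other 7. The cells were CCD-1077Sk, an established fibroblast line from normal skin, collected after 6 h. The 8 libraries form 4 groups of 2: a vehicle control (BSA, citric acid and DMSO), TGFB1 with DMSO, celastrol at 500 nM with BSA and citric acid, and TGFB1 with celastrol at 500 nM. No label gives the dose of TGFB1. Celastrol is a triterpenoid from the thunder god vine, and the study asked how it changes the response of skin fibroblasts to TGFB1. A single line stands for all fibroblasts here, and nothing in the labels tells separate cultures from repeat libraries, so each p-value reflects only the scatter between libraries, some of which may be technical.

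TGFB1 binds a pair of receptor kinases at the cell surface, which activate SMAD transcription factors, and in skin fibroblasts it is best known for driving matrix production and fibrosis. Besides matrix genes it induces signalling molecules through which fibroblasts reach other cells. Among the 8, ANGPTL4 is a secreted inhibitor of lipoprotein lipase, TNFSF15 a TNF family cytokine, IFNE a type I interferon, SEMA7A a semaphorin anchored to the membrane, ESM1 a secreted proteoglycan that carries dermatan sulfate, and S1PR5 a receptor for sphingosine 1-phosphate. ST6GAL2 is a sialyltransferase of the Golgi, and GPRIN3 belongs to a family of proteins that bind G protein alpha subunits, so these 2 are neither secreted signals nor receptors.

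The stretches just before the start sites of 3 of the genes are shown because these genes stand for different behaviours below: ANGPTL4 was high with either agent, whereas SEMA7A and IFNE were high with TGFB1 alone. They are RefSeq sequences (GRCh38.p14), read 5′ to 3′ toward the gene, and capitals mark matches on either strand to the SMAD box (CAGAC), to the core of a hypoxia response element (ACGTG) or to the A- and T-rich element that lies close before many start sites (TATAAA).
ANGPTL4, chr19:8363905-8364150, plus strand: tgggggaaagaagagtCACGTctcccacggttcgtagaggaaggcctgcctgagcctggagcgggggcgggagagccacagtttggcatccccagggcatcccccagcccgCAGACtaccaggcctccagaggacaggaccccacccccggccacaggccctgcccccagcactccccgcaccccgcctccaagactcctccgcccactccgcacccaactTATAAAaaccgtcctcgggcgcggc
SEMA7A, chr15:74433959-74434208, minus strand: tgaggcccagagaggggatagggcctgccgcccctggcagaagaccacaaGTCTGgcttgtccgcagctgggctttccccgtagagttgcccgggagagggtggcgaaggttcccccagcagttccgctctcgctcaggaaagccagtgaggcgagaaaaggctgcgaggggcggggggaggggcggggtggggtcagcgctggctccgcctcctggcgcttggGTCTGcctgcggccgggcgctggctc
IFNE, chr9:21482314-21482563, minus strand: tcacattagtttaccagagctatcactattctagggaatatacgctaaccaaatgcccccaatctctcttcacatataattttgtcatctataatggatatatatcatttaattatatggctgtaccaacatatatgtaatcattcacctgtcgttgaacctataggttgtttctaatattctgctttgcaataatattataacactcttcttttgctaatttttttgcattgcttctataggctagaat

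The ANGPTL4 stretch held 1 SMAD box beginning 139 bases before the start site, 1 hypoxia core at 234 and 1 TATAAA at 29. The RefSeq start used for ANGPTL4, 8364155, lies inside the annotated gene, which begins at 8363289. This stretch therefore lies within the gene and not before all of it. SEMA7A held 2 SMAD boxes, at 200 and 26, and IFNE held none of these motifs. RefSeq gives SEMA7A another start, at 74433704, whose window is not printed and holds a hypoxia core at 194 and a SMAD box at 46. Such short motifs are common: of 35116 RefSeq promoters, 38.0% had CAGAC within 250 bases before the start, 18.5% had ACGTG and 10.7% had TATAAA. Also searched on both strands were TGANTCA (the AP-1 site, in 6.57% of promoters), GGAATG (the TEAD site, in 11.9%), TGACNNNGC (the antioxidant response core, in 10.9%), the SMAD palindrome (0.182%), the heat shock element (0.441%) and the PPAR direct repeat (0.017%), and none of them matched in the 3 stretches. No matches shown overlap. Windows that are not printed held some of these motifs too. That of ESM1 held a hypoxia core at 18 and TATAAA at 32, with no SMAD box, so this pair is not particular to ANGPTL4. TNFSF15 held an AP-1 site at 120 and a TEAD site at 80. For ST6GAL2, 1 window held TEAD sites at 186 and 178 and a SMAD box at 6, and for S1PR5 1 window held a SMAD box at 238. A match is a description of the letters and not a measured binding site.

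ANGPTL4 was high with TGFB1, with celastrol and with both, at overlapping levels. ANGPTL4 (chr19:8363289-8374373, plus strand, 8 exons) measured 7.5 and 2.4 normalized reads in control cells. It reached 244 and 294 after TGFB1, 284 and 299 after celastrol, and 353 and 292 after both. Normalized reads are reads per gene divided by a size factor for each library. The control libraries lie far below the other 6, whose values overlap across the 3 treated groups. The mean with TGFB1 (269 ± 34.9, SD, n = 2) was 54.3 times the control mean, and the mean with celastrol (292 ± 10.4, SD, n = 2) was 58.9 times it. Only 10 reads were counted in the 2 control libraries together, so the ratio of summed reads, 66.8 with TGFB1 and 71.6 with celastrol, has 95% intervals of 36.0 to 140 and 38.7 to 150 (exact, counting error only). The ANGPTL4 level with both agents (322 ± 43.1, SD, n = 2) was 120% of the level with TGFB1 alone, a log2 difference of 0.26 (SE 0.37) in log2(normalized reads + 1), the scale of every log2 difference below. Without control replicate 1 or 2, the log2 difference of ANGPTL4 with TGFB1, 5.64, became 6.31 or 4.98, and that with celastrol, 5.77, became 6.43 or 5.11. The order of the groups was control, then TGFB1, celastrol and both, with no neighbours among the last 3 separated beyond their spread.

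**Figure D1:**
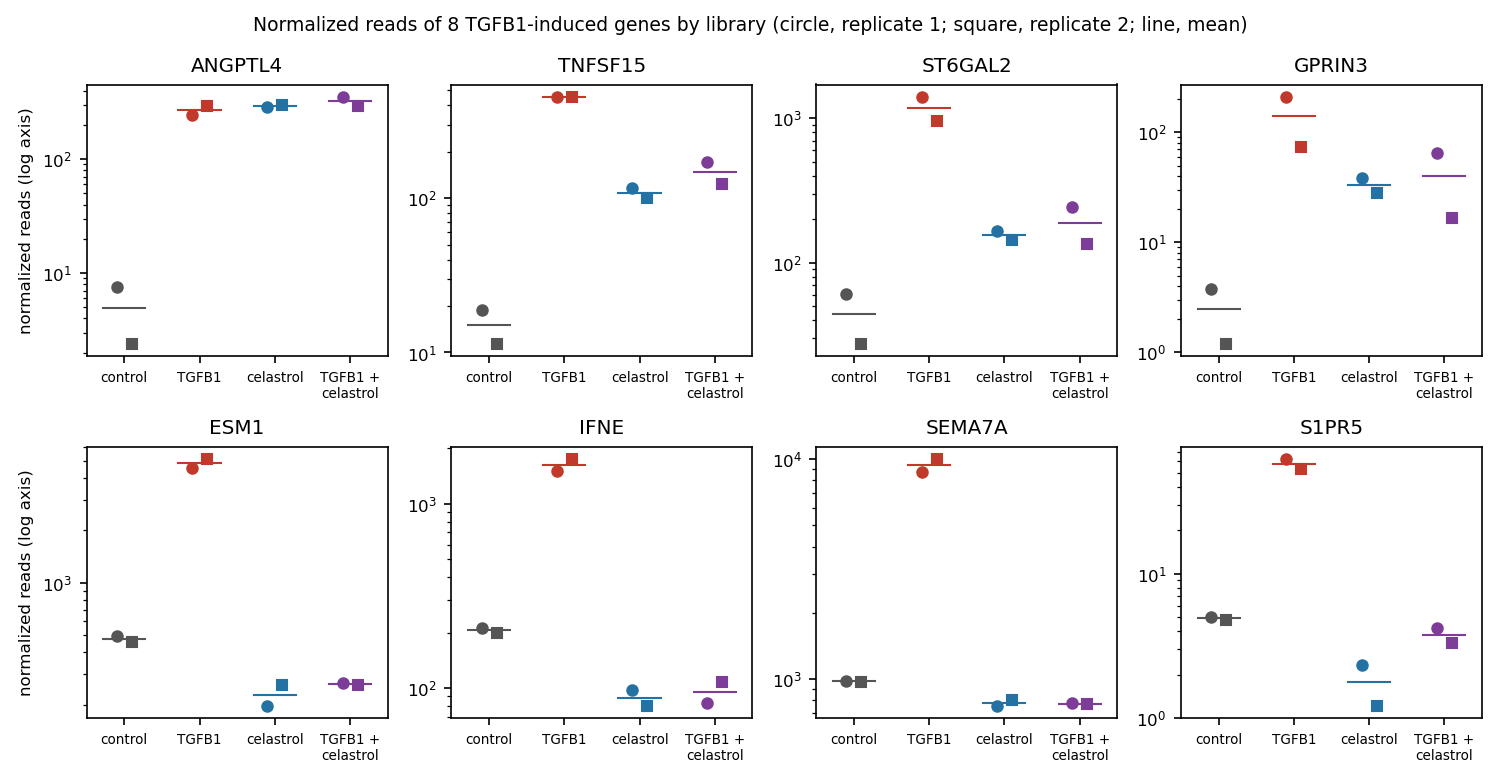
Normalized reads (log axis, a separate scale for each gene) of the 8 genes in each library of the 4 groups; circles are replicate 1, squares replicate 2 and lines the group means. ANGPTL4 is high in all 6 treated libraries, TNFSF15, ST6GAL2 and GPRIN3 are intermediate with celastrol, and ESM1, IFNE and SEMA7A lie below control with celastrol. S1PR5 does so in normalized reads, but rests on too few reads to resolve it.

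ANGPTL4 was not the only member above control with celastrol alone. TNFSF15, ST6GAL2 and GPRIN3 also had both celastrol libraries above both control libraries, but well below TGFB1. TNFSF15 (chr9:114784635-114806126, minus strand, 4 exons), whose receptor is the death receptor TNFRSF25, measured 18.8 and 11.4 in control, 455 and 451 after TGFB1, 117 and 101 after celastrol, and 172 and 124 after both. No 2 groups of TNFSF15 overlapped, and the order was control, celastrol, both, TGFB1. The TGFB1 mean (453 ± 2.64, SD, n = 2) was 30.0 times the control mean (15.1 ± 5.21), a log2 difference of 4.86 (SE 0.26), and celastrol alone was 7.20 times control (2.80, SE 0.26). With both agents TNFSF15 stood at 32.7% of its TGFB1 level (log2 difference -1.63, SE 0.26). Expressed as a share of the rise with TGFB1, 30.4% was present with both agents and 21.4% with celastrol alone.

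ST6GAL2 (chr2:106801600-106887108, minus strand, 9 exons), which adds sialic acid to the galactose ends of glycans, measured 61.3 and 27.6 in control, 1407 and 953 after TGFB1, 166 and 144 after celastrol, and 242 and 135 after both. The celastrol and combined groups overlapped, and both lay between control and TGFB1. The TGFB1 mean (1180 ± 321, SD, n = 2) was 26.5 times the control mean (log2 difference 4.78, SE 0.39), and the combined group stood at 16.0% of it (log2 difference -2.67, SE 0.39). Celastrol alone gave 3.49 times the control level, or 9.75% of the rise with TGFB1, against 12.7% with both.

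GPRIN3 (chr4:89236386-89308010, minus strand, 2 exons) measured 3.75 and 1.20 in control, 210 and 73.7 after TGFB1, 38.6 and 27.9 after celastrol, and 64.5 and 16.5 after both. Its log2 differences had the largest standard error of the 8 members, and the celastrol and combined groups overlapped. The control values rest on 3 and 2 reads, at or under the limit of 3 reads that a count of 0 allows, so ratios to control are given from summed reads: 67.8 with TGFB1 (95% interval 28.6 to 211, exact, counting error only) and 17.0 with celastrol (6.96 to 53.9). GPRIN3 with both agents was at 28.5% of its TGFB1 mean (log2 difference -1.89, SE 0.71). That difference became -2.84 without replicate 1 of the combined group and -0.94 without its replicate 2, and -1.14 and -2.64 without TGFB1 replicates 1 and 2. The difference between TGFB1 and control, 5.28, became 4.53 and 6.03 without those same TGFB1 libraries.

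ESM1, SEMA7A and IFNE behaved differently: celastrol libraries, with or without TGFB1, lay below control. S1PR5 had the same order in normalized reads. Its control libraries held 4 and 8 reads and its combined libraries 6 and 3, so that order was not resolved. ESM1 (chr5:54977864-55022671, minus strand, 5 exons), also called endocan and best known from endothelial cells, measured 493 and 459 in control, 4586 and 5128 after TGFB1, 196 and 259 after celastrol, and 266 and 258 after both. The celastrol and combined groups of ESM1 overlapped each other and neither reached control. TGFB1 gave 10.2 times the control mean (log2 difference 3.35, SE 0.13), celastrol alone 0.479 times (-1.07, SE 0.13), and the combined group was at 5.39% of the TGFB1 level (-4.21, SE 0.13).

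SEMA7A (chr15:74409289-74433958, minus strand, 14 exons), which signals through plexin C1 and through beta 1 integrin, measured 978 and 971 in control, 8737 and 10003 after TGFB1, 752 and 804 after celastrol, and 773 and 770 after both. Its combined libraries fell inside the range of the celastrol libraries, below control. TGFB1 gave 9.61 times the control mean (log2 difference 3.26, SE 0.08), celastrol alone 0.798 times (-0.33, SE 0.08), and both agents left 8.24% of the TGFB1 level (-3.60, SE 0.08).

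IFNE (chr9:21480839-21482313, minus strand, 1 exon), an interferon known for its constant production in the lining of the female reproductive tract, measured 213 and 200 in control, 1506 and 1750 after TGFB1, 97.4 and 79.9 after celastrol, and 82.7 and 108 after both. The celastrol and combined groups overlapped and both lay below control. TGFB1 gave 7.90 times the control mean (log2 difference 2.97, SE 0.17), celastrol alone 0.430 times (-1.21, SE 0.17), and both agents left 5.85% of the TGFB1 level (-4.09, SE 0.17).

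IFNE lies on the same strand inside MIR31HG, the host gene of a microRNA, without sharing exon bases with it. Reads from unspliced MIR31HG RNA can fall on IFNE in libraries of total RNA, and how such reads were counted is not stated. MIR31HG, named here for this overlap, measured 368 and 458 in control, 2157 and 2802 after TGFB1, 441 and 493 after celastrol, and 438 and 413 after both. It rose with TGFB1, where the IFNE libraries were also high (log2 difference 2.58, limma adjusted p = 9.4e-06), but with celastrol it showed a log2 difference from control of 0.18 (adjusted p = 0.311), where the IFNE libraries were below control. How much of the IFNE signal comes from MIR31HG was not tested.

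**Figure D2:**
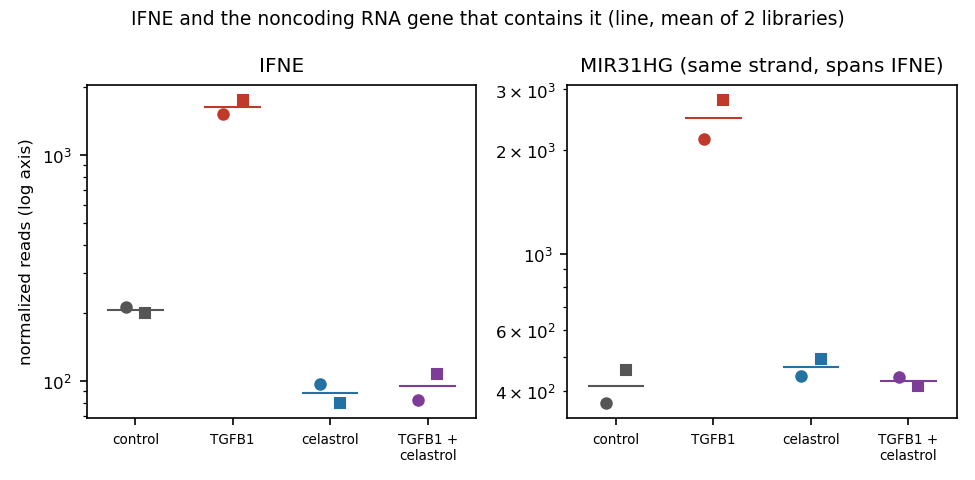
Normalized reads (log axis, a separate scale for each gene) of IFNE and of MIR31HG, the noncoding RNA gene that contains it, in the 8 libraries; circles are replicate 1, squares replicate 2 and lines the group means. Both are highest with TGFB1, while IFNE with celastrol lies at 79.9 to 108, under its control values of 200 and 213, and MIR31HG with celastrol lies at 413 to 493.

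S1PR5 (chr19:10512742-10517931, minus strand, 3 exons), a Gi-coupled receptor best known from natural killer cells and oligodendrocytes, had the fewest reads of the 8. It measured 5.0 and 4.8 in control, 62.1 and 52.8 after TGFB1, 2.32 and 1.21 after celastrol, and 4.21 and 3.30 after both. Only the TGFB1 libraries stood clear of a few reads. The summed reads were 87 with TGFB1 and 12 in control, a ratio of 11.7 (95% interval 6.40 to 23.6, exact, counting error only), and 9 with both agents, 0.0674 times TGFB1 (0.0298 to 0.134). The celastrol libraries held 3 and 1 reads, at or under the limit of 3 reads, and their ratio to control, 0.388, had an interval of 0.0912 to 1.28, so a lower level with celastrol was not resolved at this depth. S1PR5 passed the filter on low values through its TGFB1 libraries alone, ANGPTL4 and GPRIN3 through treated libraries, and the other 5 members reached the minimum of 10 normalized reads in all 8 libraries.

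Counted over the members, both TGFB1 libraries exceeded both control libraries for 8 of 8, in a comparison in which 12.8% of the 22866 genes tested were called higher and 10.6% lower (limma, Benjamini-Hochberg adjusted p under 0.05). The TGFB1 libraries exceeded the combined ones for 7 of 8, ANGPTL4 being the exception. In that comparison 25.9% of genes were called lower and 37.5% higher. Celastrol exceeded control for 4 members and control exceeded celastrol for 4, where 33.8% of genes were called higher and 21.3% lower. S1PR5, with a few reads and an order that was not resolved, is among the last 4. The shares of all genes are limma calls, a different measure from the order of libraries counted for the members. The 2 are therefore not compared, and the share of all genes whose libraries do not overlap is not given here. The member counts follow from how the genes were picked and share libraries, so nothing is read from them. As a further description from the same values that chose the members, root mean square distances between log2 profiles over the 8 libraries ran from 0.312 to 0.624 among ESM1, IFNE, S1PR5 and SEMA7A. TNFSF15 lay 0.648 from GPRIN3 and 0.755 from ST6GAL2, and ANGPTL4 lay 1.85 from its nearest member, GPRIN3.

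**Figure D3:**
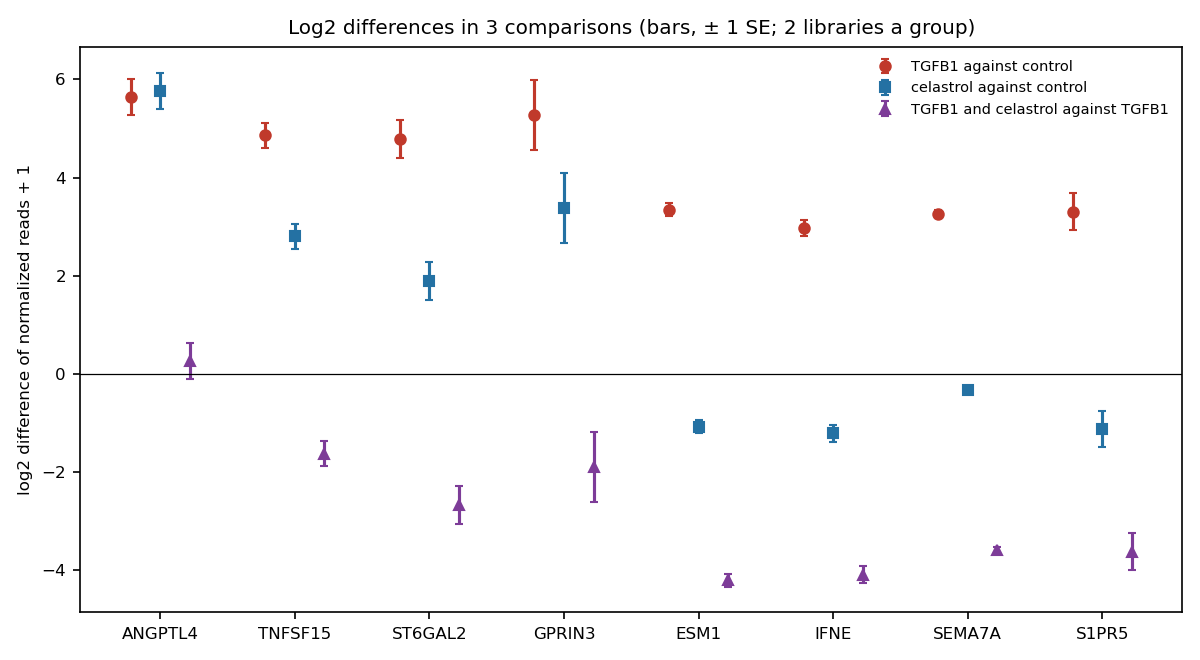
Log2 differences in normalized reads + 1 for the 8 genes: TGFB1 against control (circles), celastrol against control (squares) and TGFB1 with celastrol against TGFB1 (triangles); bars are 1 SE from limma with 2 libraries a group. The circles lie between 2.97 and 5.64, the squares run from 5.77 for ANGPTL4 to -1.21 for IFNE, and ANGPTL4 alone has a triangle above 0.

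A further comparison asks what TGFB1 added in cells that also received celastrol. The choice did not name it, but it uses the same libraries as the reversal and the celastrol differences. It is therefore not independent of the choice, and for members picked for reversal a small difference is partly built in. No difference was detected for the members: 0 of 8 passed, each with an adjusted p of 1 (limma). Across all genes 2 of 22866 passed (0.00875%) and 868 had an unadjusted p under 0.05, so 0 of 8 is at the background and is no result about these genes. SEMA7A had the tightest estimate, a log2 difference of -0.01 (95% interval -0.18 to 0.16), beside 3.26 for TGFB1 without celastrol. IFNE followed with 0.10 (-0.28 to 0.48) and ESM1 with 0.21 (-0.08 to 0.51).

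For the remaining members the intervals were wider. ANGPTL4 had a log2 difference of 0.14 (-0.71 to 0.98), ST6GAL2 0.22 (-0.66 to 1.11) and GPRIN3 0.00 (-1.63 to 1.63), which leaves room for changes of 2-fold and more for the last 2. TNFSF15, at 0.43 (-0.16 to 1.02), and S1PR5, at 0.80 (-0.05 to 1.66), were the 2 members whose combined libraries both lay above both celastrol libraries. Their unadjusted p-values were 0.133 and 0.0619 in the limma fit, and the S1PR5 value compares 9 reads with 4. A p that misses the threshold does not show that TGFB1 had no effect on these genes. The 2 genes called were FOSB, a subunit of the AP-1 transcription factor, and FOXD4L6, a forkhead gene with near-identical copies whose reads may be split among them. FOSB was higher with both agents (6838 and 7776) than with celastrol (3723 and 3381), a log2 difference of 1.04 (SE 0.10, adjusted p = 0.0499). FOXD4L6 was lower, at 0.0158 and 0.109 against 12.9 and 18.4, with the same adjusted p, but it had passed the filter through the celastrol libraries alone, the group in which it was high. Neither call was kept in the fits that left out a library, which gave 0 calls each.

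**Figure D4:**
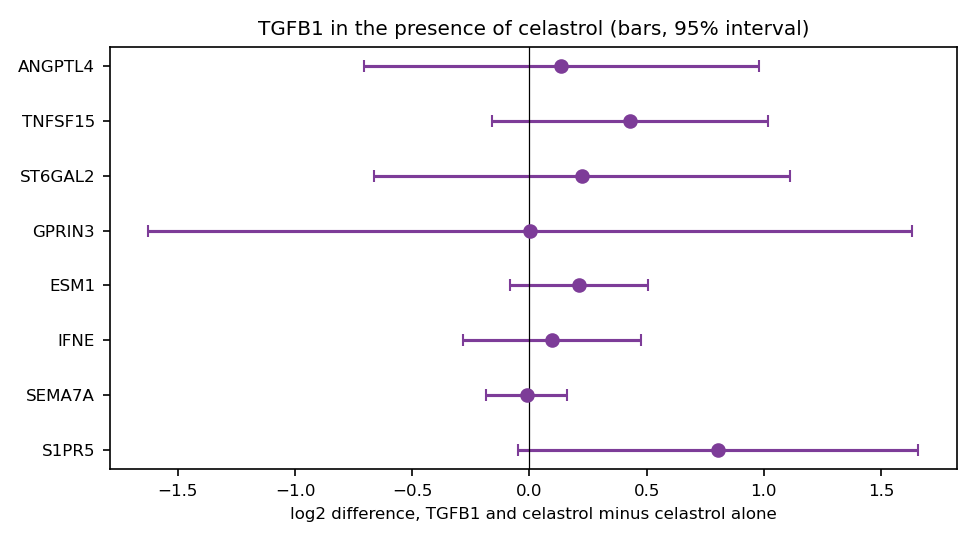
Log2 difference between TGFB1 with celastrol and celastrol alone (horizontal axis) for each of the 8 genes, with 95% intervals from limma, 2 libraries a group. All 8 intervals include 0, from the narrow one of SEMA7A (-0.18 to 0.16) to that of GPRIN3 (-1.63 to 1.63).

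Families and pathways of the members were listed as 152 genes, of which 126 were measured and 124 tested. With TGFB1, 25 rose and 26 fell (20.2% and 21.0%), beside 12.8% and 10.6% of all genes. The median log2 difference was -0.05 against 0.00 over all genes. The split between rises and falls depended on scaling. It was 18 and 45 when each library was scaled to a common total and 33 and 22 with log2 medians aligned. With both agents against TGFB1, 59 rose and 26 fell (66 and 17, or 44 and 50, under those scalings). These were 47.6% and 21.0% of those tested, beside 37.5% and 25.9% of all genes. With celastrol against control 56 rose and 15 fell (50 and 21, or 41 and 31). These were 45.2% and 12.1%, beside 33.8% and 21.3% of all genes. In all, 18 of the 124 had passed the filter through celastrol libraries alone. They include 17 of the genes that rose in each of the last 2 comparisons. None of the 124 was called for TGFB1 in the presence of celastrol, as for the members, beside 2 of 22866 genes (0.00875%).

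Around SEMA7A, 18 other semaphorins were tested, of which 3 had passed the filter through celastrol libraries alone. With TGFB1, 10 of the 18 fell and 1, SEMA3C, rose (12 and 1, or 8 and 1, under the other scalings). The rest did not pass. Of all genes, 10.6% fell and 12.8% rose. SEMA3D, a secreted guidance cue, went from 2089 and 2226 in control to 979 and 1055 with TGFB1 (log2 difference -1.08, SE 0.10, limma adjusted p = 0.000111) and was at 1887 and 2270 with both agents. SEMA4B (-1.14, SE 0.11, adjusted p = 0.000139) and SEMA3A (-0.86, SE 0.09, adjusted p = 0.000233) also fell. Of the SEMA7A receptors, PLXNC1 had a log2 difference of 0.24 with TGFB1 (adjusted p = 0.126), and the integrin subunits ITGB1 (0.51, adjusted p = 0.00108) and ITGA1 (0.71, adjusted p = 0.00769) rose.

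The genes around S1PR5 were divided. SPHK1, the kinase that makes sphingosine 1-phosphate, rose from 998 and 801 to 3096 and 3788 with TGFB1 (log2 difference 1.94, SE 0.13, limma adjusted p = 2.55e-05) and stood at 1455 and 1259 with both agents. SGPL1, the lyase that breaks it down, rose by 0.67 (SE 0.06, adjusted p = 9.3e-05). Of the other receptors, S1PR2 rose (0.74, adjusted p = 0.00185), S1PR1 fell (-0.78, adjusted p = 0.000174), and S1PR3 had a log2 difference of -0.11 (adjusted p = 0.394). S1PR1 was 762 and 737 in control and 2474 and 2822 with celastrol, a rise of 1.82 (adjusted p = 6.8e-07), whereas S1PR5 held 3 and 1 reads there.

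For ANGPTL4, 5 genes of its family and lipase partners were tested. LIPG, the endothelial lipase, rose with TGFB1 (log2 difference 1.64, SE 0.22, limma adjusted p = 0.000933). ANGPTL2 (-0.10, adjusted p = 0.555) and LMF1, a lipase maturation factor (-0.14, adjusted p = 0.634), did not pass. ANGPTL1 was at 1.3 and 9.0 in control and 1.41 and 3.69 with TGFB1, then 66.5 and 108 with celastrol and 73.6 and 112 with both. It passed the filter through celastrol libraries alone and was not called with TGFB1 (-0.50, adjusted p = 0.665).

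ANGPTL4 is a textbook target of PPAR receptors and of hypoxia-inducible factors. Of 14 tested PPAR receptors and targets, 3 rose and 2 fell with TGFB1 (1 and 5 under a common total, 4 and 2 with medians aligned), beside 12.8% and 10.6% of all genes, and 6 rose and 1 fell with celastrol (4 and 2, or 3 and 3), where 33.8% of all genes rose and 21.3% fell. The celastrol count includes PDK4, which passed the filter through celastrol libraries alone. PPARD, one of the receptors, measured 1546 and 1574 in control, 3730 and 4776 after TGFB1, 1483 and 1542 after celastrol and 1561 and 1624 after both, rising with TGFB1 (1.44, SE 0.10, adjusted p = 3.5e-05). PPARG (-0.68, adjusted p = 0.00263) and PLIN2, a lipid droplet coat protein (-0.75, adjusted p = 7.67e-05), fell with TGFB1 and rose with celastrol (2.02 and 1.20, adjusted p = 2.27e-06 and 2.1e-06).

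Of 18 tested hypoxia-inducible factor genes and targets, 8 rose and 1 fell with TGFB1 (6 and 3, or 10 and 1, under the other scalings), beside the same 12.8% and 10.6% of all genes. With celastrol 14 rose and 1 fell (13 and 1, or 10 and 2), beside 33.8% and 21.3%, and the 14 include EGLN3, which passed the filter through celastrol libraries alone. VEGFA, the vascular growth factor, measured 867 and 886 in control, 2710 and 3053 after TGFB1, 5054 and 5209 after celastrol and 5888 and 5528 after both. It rose by 1.71 with TGFB1 and by 2.55 with celastrol (SE 0.07, limma adjusted p = 1.64e-06 and 9.98e-08). HIF1A rose by 1.02 and 0.41 (adjusted p = 5.98e-06 and 0.00024). ADM, the peptide adrenomedullin, fell by 1.18 with TGFB1 (adjusted p = 5.19e-05) and rose by 1.32 with celastrol (adjusted p = 8.13e-06).

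Around TNFSF15, 11 other TNF family ligands were tested. Of these, 6 had passed the filter through celastrol libraries alone, and several measured 0 in every control and TGFB1 library. A rise or fall with TGFB1 could hardly be called for them, so the counts with TGFB1 are no result about the family. With TGFB1 none rose and 1, TNFSF9, fell, beside 12.8% and 10.6% of all genes. With medians aligned TNFSF18 also passed upward. TNFSF9 rested on 6.25 and 8.40 normalized reads in control and 1.41 and 2.46 with TGFB1, and stood at 80.4 and 76.3 with celastrol, the libraries through which alone it passed the filter. Its fall with TGFB1 (log2 difference -1.52, limma adjusted p = 0.0162) did not pass without control replicate 2 (-1.33, adjusted p = 0.0841) or TGFB1 replicate 1 (-1.26, adjusted p = 0.0535). TNFRSF25, the receptor of TNFSF15, was at 153 and 128 in control and 120 and 133 with TGFB1 (log2 difference -0.15, adjusted p = 0.586) and fell with celastrol (-0.84, adjusted p = 0.00279).

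Around ST6GAL2, 14 other sialyltransferases were tested, where 12.8% of all genes rose with TGFB1 and 10.6% fell. Of the 14, 3 had passed the filter through celastrol libraries alone. ST3GAL1 and ST3GAL2 rose with TGFB1 (log2 differences 0.73 and 0.45, limma adjusted p = 0.000139 and 0.00168) and 4 fell (5 under a common total). The closest relative of ST6GAL2, ST6GAL1, fell from 263 and 226 to 158 and 181 (-0.53, adjusted p = 0.0235), and ST3GAL4 fell by 0.40 (adjusted p = 0.00612). The ST6GAL1 fall did not pass in limma fits that left out control replicate 1 (-0.42, adjusted p = 0.143) or TGFB1 replicate 1 (-0.43, adjusted p = 0.0882). Around ESM1, 11 genes that build dermatan sulfate chains were tested. With TGFB1 3 rose and 3 fell (2 and 5, or 5 and 2, under the other scalings), beside the same 12.8% and 10.6%. XYLT1, which starts such chains, rose from 2479 and 2565 to 15507 and 18871 (2.76, SE 0.11, adjusted p = 1.27e-06) and was at 2464 and 2441 with both agents. CHSY1, a chain-lengthening enzyme, rose by 0.48 (adjusted p = 0.000445), and DSEL, an epimerase relative, fell by 0.60 (adjusted p = 0.000105).

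For IFNE, 8 genes of the type I interferon pathway were tested, where 12.8% of all genes rose with TGFB1 and 10.6% fell. Through celastrol libraries alone 1 of them had passed the filter. Of the 8, JAK1 rose with TGFB1 (log2 difference 0.29, limma adjusted p = 0.00848) and STAT2 fell (-0.54, adjusted p = 0.00039). The JAK1 rise did not pass with a common total or without control replicate 1. The receptor chains IFNAR1 (0.07, adjusted p = 0.513) and IFNAR2 (0.29, adjusted p = 0.228) did not pass with TGFB1, and both fell with celastrol given on top of it (-0.35 and -0.96, adjusted p = 0.00169 and 0.000763). For GPRIN3, the relative GPRIN1 had a log2 difference of 0.02 with TGFB1 (adjusted p = 0.967). Of the G protein alpha subunits, GNAI1 fell by 1.25 (adjusted p = 3.43e-06), GNAZ rose by 0.41 (adjusted p = 0.0244, lost with a common total, without either control replicate or without TGFB1 replicate 2), and GNAI3 had a difference of 0.15 (adjusted p = 0.146).

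The genes most like the members by profile were sought among 11841 others by the root mean square distance of log2 profiles over the 8 libraries. ANGPTL4 had no close neighbour: RGS16, a regulator of G protein signalling, was nearest at 1.07, followed by SIK1B (1.12), KCNJ15 (1.47), SIK1 (1.54) and PTHLH (1.58). SIK1 and SIK1B are near-identical copies whose reads cannot be assigned with certainty. RGS16 measured 5.0 and 2.4 in control, 60.7 and 49.2 after TGFB1, 228 and 151 after celastrol and 306 and 195 after both, so that TGFB1 gave less than celastrol there, unlike ANGPTL4. The median profile of the other 7 members was matched closely by, among others, XYLT1 (0.367), CCN2 (0.445), TGFBI (0.487) and PODXL (0.502). With celastrol alone TNFSF15, ST6GAL2 and GPRIN3 rose by 2.80, 1.88 and 3.39, a rise the median does not show, and XYLT1 was at -0.20. The match therefore does not extend to TNFSF15, ST6GAL2 and GPRIN3. A median is also smoother than a single profile, so its distances are not set beside those of ANGPTL4. CCN2 is a widely used TGFB1 response gene, and it stood close to its control values of 22618 and 21793 in the presence of celastrol, with 143117 and 157853 under TGFB1 and 24485 and 26064 under both.

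**Figure D5:**
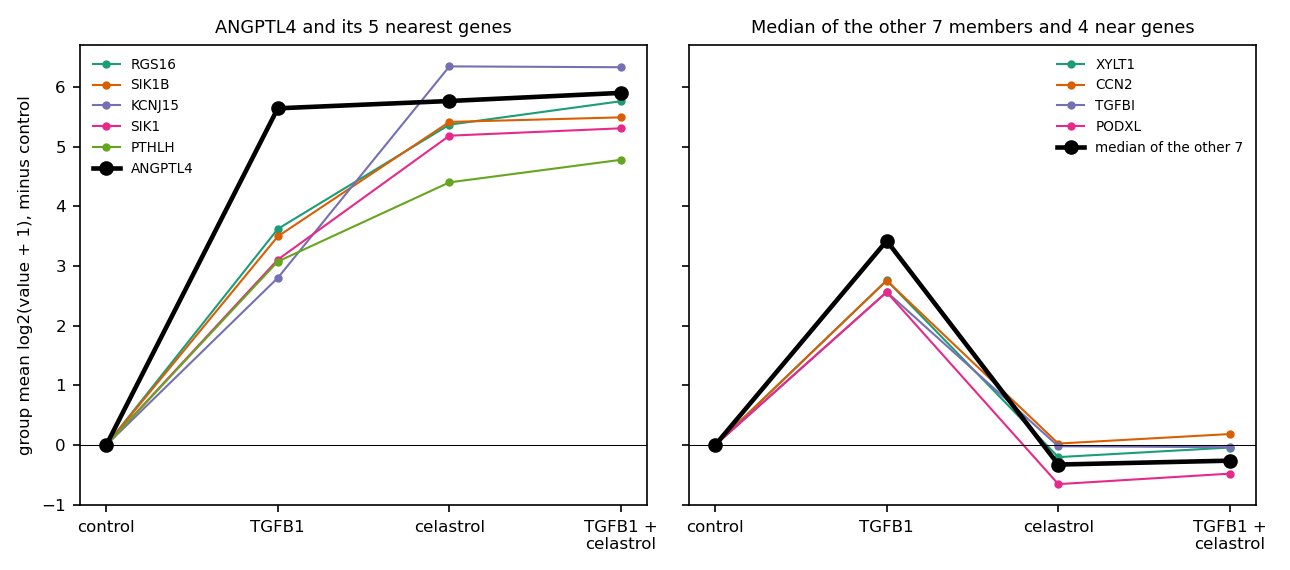
Group means of log2(normalized reads + 1) minus control for ANGPTL4 with its 5 nearest genes (left) and for the median of the other 7 members with 4 of the genes nearest to it (right), in the 4 groups. ANGPTL4 reaches 5.64 with TGFB1, where its neighbours reach 2.80 to 3.62, while the genes on the right follow the median closely. The median does not show the rise of TNFSF15, ST6GAL2 and GPRIN3 with celastrol.

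The libraries held 20716688 to 42518381 estimated reads, and 3 reads equal 1.80 to 4.24 normalized reads. Across the whole table, calls numbered 2937 up and 2427 down for TGFB1 (1417 and 5399 with libraries scaled to a common total, 4778 and 1775 with medians aligned), 8564 and 5933 with both against TGFB1 (9809 and 4183, or 6956 and 9094), and 7737 and 4868 with celastrol against control (7286 and 6068, or 6751 and 7470). All 12 fibroblast markers were present, with summed levels of 413568 to 717678. The 4 measured of 6 endothelial markers summed to 52.7 to 98.9 without celastrol and 354 to 465 with it. By gene VWF, PECAM1 and TEK were higher with celastrol, and KDR overlapped. The 2 measured of 4 melanocyte markers summed to 8.75 to 14.1 and 95.7 to 134, a difference that lay in MLANA (0 to 1.23 and 84.8 to 124), while PMEL overlapped (8.75 to 14.1 and 9.28 to 20.6). The sums of the 4 measured of 5 immune markers overlapped, at 244 to 364 and 354 to 488. By gene CD68 and CD79A overlapped, while PTPRC (4.24 to 16.2 and 23.0 to 33.0) and LYZ (0 to 2.82 and 3.63 to 10.5) did not. The 2 measured of 5 keratinocyte markers summed to 880 to 1065 over all libraries. Nearly all of this was KRT10, which overlapped, while CDH1 did not (0 to 1.80 without celastrol and 3.30 to 13.9 with it). The part of other cell types was not tested for any member, and in such bulk samples fewer cells of a type and less RNA per cell cannot be told apart. ANGPTL4 shares 1 exon base with the antisense gene RAB11B-AS1 (16.8 to 27.5 in all libraries) and ESM1 shares 44 with a same-strand transcript not analysed here.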

How the data were processed

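RNA was measured in 8 libraries, 2 in each of 4 groups taken from the sample titles; 1 other label numbers celastrol replicate 2 differently. Per the labels' protocols, libraries were made from total RNA with a VAHTS kit after TRIzol extraction. The table the authors deposited holds 1 signal value per gene and library, reads divided by a size factor. Partek 10.0.22, STAR 2.7.3a, DESeq2 and hg38 appear in the submitters' processing notes; their roles, the annotation, counting rule, strand and filters are unknown here. Between 76.1% and 79.0% of values below 60 were whole multiples of 1 read (within 0.02 reads), so no count model was run; read numbers printed here are the values divided by that step, rounded.

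Log2(value + 1) was fitted for 22866 genes with at least 10 in at least 2 libraries (limma 3.58.1 in R 4.3.3, 1 mean per group, variance trend, 4 residual degrees of freedom, two-sided, Benjamini-Hochberg adjustment over all genes tested in each comparison, called under 0.05). The procedure was tested on data simulated with 1 spread for all genes and no replicate effect. Only genes with a mean of at least 50 were changed there, so the simulation does not cover genes with few reads. Alternatives were pseudocounts of 0.5 and 5, no filter or a minimum of 50, scaling to a common total, median centring, no trend, only the 4 compared libraries, a replicate block and leaving out each library. The members, the 10 lists of related genes and the markers were chosen with earlier results of these data known. Beside the members, the text names up to 3 genes of each list with the smallest p for TGFB1 with or without celastrol among those with a group mean of at least 50, relatives and receptors that were measured, and the 5 genes nearest each profile, of which 1 is not reported here. Gene locations and exons are from GENCODE 29 on GRCh38, the build of hg38. Promoters from RefSeq were found for 7 of the 8 members. The only starts given for ESM1 (54985593) and TNFSF15 (114792530) lie inside the annotated genes, as for ANGPTL4. The ESM1 window overlaps an annotated exon and is not printed, and that of ANGPTL4 was cut short before one. Reads carry no molecular identifiers and may be copies of 1 molecule, so intervals and limits describe counting error alone.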

Additional observations from a re-analysis of the deposited data

Results flagged for a closer look

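Of the 42 related genes named above, 24 differed in their response to TGFB1 with and without celastrol. The test was of that difference itself (limma interaction, adjusted p under 0.05). Each value is the log2 difference with TGFB1 in the presence of celastrol minus that in its absence. Over all 124 related genes tested, 33 passed. It was negative for XYLT1 (-2.60), SPHK1 (-1.86), LIPG (-1.78), VEGFA (-1.56), PPARD (-1.36), HIF1A (-1.03), SGPL1 (-0.68), S1PR2 (-0.77), ITGA1 (-0.76), ST3GAL1 (-0.67), ST3GAL2 (-0.52), CHSY1 (-0.47), ITGB1 (-0.45) and SEMA3C (-0.42), all of which rose with TGFB1 alone. It was positive for GNAI1 (1.26), SEMA4B (1.15), SEMA3D (1.12), ADM (1.11), SEMA3A (0.85), S1PR1 (0.72), PLIN2 (0.58), DSEL (0.54), ST3GAL4 (0.52) and STAT2 (0.37), all of which fell with TGFB1 alone. With celastrol present, none of these 24 was called for TGFB1, where 2 of all 22866 genes were called (0.00875%). The share of all genes that passed the interaction test is not given here, so the counts of 24 and 33 are not read as an excess. The interaction differences share libraries with the comparisons above. Many of these genes were named for a small p with TGFB1, and few genes were called for TGFB1 in the presence of celastrol. An interaction of opposite sign to the TGFB1 difference therefore largely follows from that choice, and nothing is read from the signs. Groups of 2 libraries are too small to test single libraries as outliers.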

How the results depend on the processing

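Group means rest on 2 libraries, which limits every interval. Members called for TGFB1 in the presence of celastrol numbered 0 under every alternative, and related genes also 0. The 2 genes called there (FOSB and FOXD4L6) became 0 with a pseudocount of 0.5, no filter or median centring, and 1 with a pseudocount of 5, a minimum of 50, no variance trend or only the 4 compared libraries, and ranged from 0 to 0 when single libraries were left out. Calls with TGFB1 against control, 5364, became 1684 with only the 4 compared libraries and 3248 to 4757 without single libraries (3311 without control replicate 1, 3248 without control replicate 2). The 51 related genes called there became 26 with only the 4 compared libraries. The median of all genes shifted with scaling, from 0.00 to -0.21 (common total) and 0.12 (median centring) with TGFB1, and from 0.12 to 0.28 and -0.17 with both agents against TGFB1. ANGPTL4 with both agents against TGFB1 turned to -0.0297 with median centring. For TGFB1 in the presence of celastrol, none of whose member values passed, leaving out single libraries gave ranges that cross 0 for ANGPTL4 (-0.0003 to 0.273), ST6GAL2 (-0.192 to 0.641), SEMA7A (-0.0592 to 0.0373), IFNE (-0.092 to 0.287) and GPRIN3 (-0.95 to 0.953), and signs also turned for SEMA7A with a common total (0.0008) and GPRIN3 with a pseudocount of 0.5 (-0.003). The cause was not tested. Of 1530 recomputed values of the named related genes, 51 no longer passed and none turned.

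The deviations of same-numbered libraries correlated weakly, at 0.0499 to 0.0815 over 6 pairs of groups, all positive. Among fibroblast markers, DCN was higher in replicate 2 in all 4 groups (2824 and 3941 in control). LUM was not (10593 and 10211 with TGFB1). Whether a replicate effect is shared by some genes was not tested, and the main fit holds no term for it. With a replicate block the calls were 6542 with TGFB1, 15312 with both against TGFB1, 13548 with celastrol and 1 for TGFB1 in the presence of celastrol. Without the block they were 5364, 14497, 12605 and 2. Related genes called under the block were 56, 86, 75 and 0, and members 0.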
